A study of Mus musculus with 6 samples.

Results

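To describe the chromatin of genes that place germinal center (GC) B cells within the follicle and keep them there, the H3K4me1 and H3K4me3 peaks at 9 genes were taken from 6 deposited peak lists. The genes are the chemokine receptors Cxcr4, Cxcr5, Ccr7 and Ccr6, the sphingosine-1-phosphate (S1P) receptors S1pr1 and S1pr2, the oxysterol receptor Gpr183, and the signalling genes Gna13 and Arhgef1. They were chosen by function, by name, out of 21864 protein-coding genes in the annotation. Earlier results of these data were known at that point, so comparisons with all genes below only describe the set. Each peak was assigned to 1 of 3 zones in this order: promoter, if its nearest edge lay within 5 kb of a transcription start site (TSS) of a protein-coding transcript of the gene; gene body, if it overlapped the gene elsewhere; and outlying, if it lay 5 to 50 kb from the nearest TSS.

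All 6 libraries came from spleens of wild-type (WT) mice immunized 8 days earlier with SRBC (sheep red blood cells), which induce a GC reaction, and each was made from 50000 sorted cells. There were 3 libraries for each mark and no mutant, unimmunized or other cell group, so the comparison the design allows is between the marks. The labels call the cells GC centrocytes, the light zone fraction, and the study's methods call them GC B cells, and the sorted fraction is not settled by these sources. WT is the label's word, and in its mutant comparisons the paper uses it for mice that carry a GC-directed Cre allele without floxed genes, which the labels do not state for these libraries. The paper gives an age range and matching by sex for immunized mice in general, but the sex, age and strain behind the present libraries, and whether the libraries of a mark came from separate animals, are not given for them in the sources used here, so spread and p-values below cover only the spread between these samples, which may be technical. An H3K27ac antibody appears in the labels' protocol, but the sample titles, the antibody entries and the paper's own methods give H3K4me1 and H3K4me3, and these marks were used.

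GC B cells move between a dark zone, to which CXCR4 draws them along CXCL12, and a light zone, to which CXCR5 draws them along CXCL13. S1PR2 keeps B cells inside the GC by signalling through the G protein subunit Gα13 and the exchange factor ARHGEF1, whereas S1PR1 guides lymphocytes out of lymphoid tissue and GPR183 draws activated B cells to the outer follicle. CCR7 directs cells to the T cell zone and CCR6 responds to CCL20. H3K4me3 is typical of active promoters, and H3K4me1 is typical of enhancers and of the flanks of active promoters.

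H3K4me1 replicates 1, 2 and 3 held 24136, 13923 and 11922 peaks over 7.91, 4.35 and 3.53 Mb, and the H3K4me3 replicates held 46707, 41936 and 42862 peaks over 60.2, 49.4 and 50.7 Mb. H3K4me1 replicate 1 thus stands apart from the other libraries of its mark, and values that rest on it are given with those of the others. The median H3K4me1 summit held 6 fragments in each library, as recovered from fold enrichment and p-value, so the absence of an H3K4me1 peak means only that none was called at this depth. The label was checked against defining markers: a promoter H3K4me3 peak in 3 of 3 libraries, present at 56.2% of all protein-coding genes, was found at 5 of 5 B cell and 6 of 6 GC B cell markers, against 1 of 6 T cell markers (4 of 6 had none in any library, among them Cd3e, Cd4 and Cd8a), 2 of 5 myeloid and 3 of 4 erythroid markers. Their medians of the share of the promoter window under H3K4me3 were 82.1%, 52.6%, 0%, 4.54% and 10.8%, against 9.05% for all protein-coding genes, so the erythroid markers were not below the other genes. The part of other cells in the values below was not tested.

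Sequences are shown for the places on which the account turns. The first set holds 250 bases before the RefSeq start of 4 of the genes (assembly GRCm38.p6, written in the direction of transcription). These genes were chosen because H3K4me3 lay over promoters of very different base composition. Merged over the 3 libraries, the H3K4me3 region over the TSS spanned 10420, 12241 and 11776 bp at Cxcr4, Gpr183 and Gna13. At S1pr2 it spanned 2595 bp. Capitals mark matches to the motifs searched on both strands, which were the FOXO motif TGTTTAC, the PU.1 motif AGGAAGT, the E-box CAGGTG, the E-box CAGCTG, the octamer TTTGCAT, the KLF motif GGGTGTG and the TATA box TATAAA.
Cxcr4 promoter, chr1:128592300-128592549, minus strand: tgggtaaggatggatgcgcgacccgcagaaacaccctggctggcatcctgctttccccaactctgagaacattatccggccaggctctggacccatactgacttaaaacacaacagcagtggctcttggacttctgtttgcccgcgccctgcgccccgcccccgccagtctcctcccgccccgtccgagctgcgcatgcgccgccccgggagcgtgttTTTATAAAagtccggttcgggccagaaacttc
S1pr2 promoter, chr9:20976794-20977043, minus strand: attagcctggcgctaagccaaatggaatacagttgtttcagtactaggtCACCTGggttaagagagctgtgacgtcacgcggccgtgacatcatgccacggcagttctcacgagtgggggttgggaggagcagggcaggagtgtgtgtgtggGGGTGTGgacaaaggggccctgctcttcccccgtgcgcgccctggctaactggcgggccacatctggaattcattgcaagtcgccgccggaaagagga
Gpr183 promoter, chr14:121965194-121965443, minus strand: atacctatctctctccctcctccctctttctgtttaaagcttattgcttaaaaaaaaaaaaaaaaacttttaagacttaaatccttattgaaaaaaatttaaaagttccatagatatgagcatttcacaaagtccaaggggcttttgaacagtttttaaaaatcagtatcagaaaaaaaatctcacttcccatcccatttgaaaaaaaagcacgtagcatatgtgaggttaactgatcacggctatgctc
Gna13 promoter, chr11:109362544-109362793, plus strand: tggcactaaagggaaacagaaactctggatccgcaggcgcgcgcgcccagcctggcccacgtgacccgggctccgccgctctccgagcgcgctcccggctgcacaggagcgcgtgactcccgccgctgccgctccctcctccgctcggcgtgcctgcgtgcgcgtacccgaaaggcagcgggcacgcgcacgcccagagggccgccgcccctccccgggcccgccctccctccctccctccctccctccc

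Gna13 held 33 CpG dinucleotides in this stretch, Cxcr4 19, S1pr2 14 and Gpr183 2, against a median of 6 over 32851 RefSeq promoters of the same length. Of the other genes, both Arhgef1 promoters were CpG-rich (25 and 17) and those of Ccr6 held 1 and 7. In Cxcr4 the capitals cover TATAAA matches on both strands that overlap each other, and 12.4% of all promoters hold this motif. S1pr2 held CAGGTG on the opposite strand (17.2% of all promoters) and GGGTGTG (6.93%), and the first Ccr6 promoter, not printed, held AGGAAGT (7.69%) and TTTGCAT (4.12%). No motif of the set was in the Gpr183, Gna13 or Arhgef1 stretches, which says only that these letters are not in these windows.

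The second set holds the H3K4me1 regions around Cxcr4 that were present at the same bases in every H3K4me1 library, as 300 bases centred on the shared stretch (GRCm38, plus strand).
Cxcr4 downstream region, chr1:128548838-128549137, plus strand: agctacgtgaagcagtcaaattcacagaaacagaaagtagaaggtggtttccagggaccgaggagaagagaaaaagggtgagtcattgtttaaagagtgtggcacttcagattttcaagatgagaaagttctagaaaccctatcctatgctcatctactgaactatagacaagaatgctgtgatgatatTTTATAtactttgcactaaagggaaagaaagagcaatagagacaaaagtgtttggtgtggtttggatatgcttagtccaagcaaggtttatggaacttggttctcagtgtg
Cxcr4 nearer upstream region, chr1:128605817-128606116, plus strand: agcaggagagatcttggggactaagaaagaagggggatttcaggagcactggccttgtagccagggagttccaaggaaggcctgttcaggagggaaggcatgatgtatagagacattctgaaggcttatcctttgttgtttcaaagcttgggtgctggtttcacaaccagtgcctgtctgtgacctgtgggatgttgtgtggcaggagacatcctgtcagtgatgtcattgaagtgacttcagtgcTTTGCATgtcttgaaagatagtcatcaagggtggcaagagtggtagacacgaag
Cxcr4 farther upstream region, chr1:128608535-128608834, plus strand: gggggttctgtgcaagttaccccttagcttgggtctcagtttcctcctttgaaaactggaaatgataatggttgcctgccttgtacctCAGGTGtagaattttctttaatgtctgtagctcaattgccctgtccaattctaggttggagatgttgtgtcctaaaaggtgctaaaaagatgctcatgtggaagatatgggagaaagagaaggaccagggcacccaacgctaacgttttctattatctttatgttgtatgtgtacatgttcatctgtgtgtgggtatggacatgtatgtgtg

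These 3 windows lie in intergenic sequence and hold 2, 1 and 2 CpGs, with GC shares of 39.3%, 49.0% and 43.0%. Capitals mark a TATAAA match on the opposite strand in the downstream region, the octamer TTTGCAT in the nearer upstream region and the E-box CAGGTG in the farther upstream region. Among 1613 windows of the same length cut in the same way from H3K4me1 regions of the whole genome, 14.6%, 9.42% and 21.6% hold these motifs. A match is a description of the sequence and not of a bound factor.

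At the promoters, H3K4me3 was present at every gene of the set. A promoter H3K4me3 peak was called in 3 of 3 libraries at 9 of 9 genes, where 56.2% of all protein-coding genes met the same rule and 34.5% had such a peak in no library. The share of the promoter window under H3K4me3 peaks was higher at these genes than at most others, with a median of 61.5% over the 9 genes and 9.05% over all protein-coding genes. H3K4me1 peaks covered far less of the same windows, with medians of 2.82% and 0%.

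Among the chemokine receptors, Cxcr4 (ENSMUSG00000045382, chr1:128588199-128592293, minus strand) had the highest mean share of its promoter window under H3K4me3. H3K4me3 covered 78.5%, 69.4% and 77.2% of it in replicates 1, 2 and 3, a mean of 75.0% ± 4.88 (SD, n = 3), and H3K4me1 covered 7.90%, 3.66% and 1.93%. The Cxcr4 value exceeded that of 99.8% of protein-coding genes. The nearest other protein-coding TSS, that of Dars, is 174922 bp away, so no other coding promoter lies in any zone of Cxcr4.

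Cxcr5 (ENSMUSG00000047880, chr9:44511787-44561877, minus strand) has 3 annotated TSSs, and 1 of them lay under H3K4me3. The TSS at position 44526421 was covered by an H3K4me3 peak in 3 of 3 libraries, and those at 44556391 and 44561877, toward the 5′ end of the gene, in 0 of 3. The TSS at 44561877 nevertheless had H3K4me3 nearby in every library, with peaks beginning 629, 959 and 843 bp from it and others 3164, 3525 and 2889 bp away. H3K4me3 covered 41.3%, 31.9% and 35.6% of the joint window of these TSSs, a mean of 36.2% ± 4.76 (SD, n = 3). As this window is 25488 bp long, against 10001 bp for a gene with 1 TSS, the share is not that of the covered TSS alone, and the widest promoter peaks were 7598, 5246 and 5718 bp. The gene also overlaps Bcl9l, whose nearest TSS is 27285 bp from a Cxcr5 TSS.

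Ccr7 (ENSMUSG00000037944, chr11:99144196-99155077, minus strand) had the smallest H3K4me3 share of the set. It reached 36.7%, 27.8% and 23.4%, with a mean of 29.3% ± 6.80 (SD, n = 3), and its widest promoter peaks were 1845, 1815 and 1073 bp. It was also the gene whose TSS was not covered in every library: in H3K4me3 replicate 3 the nearest peak began 117 bp away. An H3K4me3 peak covered a TSS in 3 of 3 libraries at the other 8 genes, and at 38.4% of all protein-coding genes.

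At Ccr6 (ENSMUSG00000040899, chr17:8236043-8257141, plus strand) the libraries disagreed most. H3K4me3 covered 82.1%, 39.9% and 62.9% of the window, a mean of 61.7% ± 21.1 (SD, n = 3). Replicate 1 had 1 promoter peak of 15484 bp where replicates 2 and 3 had 6 and 4 separate peaks, the widest 2743 and 4212 bp. Of its 5 TSSs, the 3 at positions 8243811, 8243814 and 8245065 were covered in 3 of 3 libraries and the 2 upstream ones in 2 of 3.

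The S1P receptors had similar promoter shares. For S1pr1 (ENSMUSG00000045092, chr3:115710433-115715072, minus strand) H3K4me3 covered 50.6%, 50.5% and 48.0%, a mean of 49.7% ± 1.46 (SD, n = 3), the smallest spread of the 9 genes. For S1pr2 (ENSMUSG00000043895, chr9:20962361-20976781, minus strand) coverage was 55.3%, 39.3% and 49.7%, averaging 48.1% ± 8.15 (SD, n = 3). The libraries of these genes overlapped, so the egress receptor and the confinement receptor could not be ordered by this mark.

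Gpr183 (ENSMUSG00000051212, chr14:121952551-121965195, minus strand) lies inside the gene Ubac2. H3K4me3 covered 64.7%, 57.6% and 62.3% of its promoter window, a mean of 61.5% ± 3.61 (SD, n = 3), and its widest promoter peaks were 11883, 11120 and 7701 bp, extending into the transcribed part. It had the largest promoter share of H3K4me1 of the set, 18.3%, 7.58% and 5.40%, with replicate 1 far above the others. The widest peaks over its CpG-poor promoter, printed above, were longer in each replicate than those at CpG-rich Gna13, which were 10492, 5283 and 6005 bp.

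The signalling genes downstream of S1PR2 lay near the top of the order. For Gna13 (ENSMUSG00000020611, chr11:109362831-109401369, plus strand), which encodes Gα13, H3K4me3 covered 85.1%, 58.9% and 64.1%, a mean of 69.4% ± 13.8 (SD, n = 3), again with replicate 1 highest. For Arhgef1 (ENSMUSG00000040940, chr7:24902912-24926594, plus strand), a guanine nucleotide exchange factor, it covered 76.7%, 75.7% and 69.6%, a mean of 74.0% ± 3.82 (SD, n = 3). A TSS of the B cell receptor gene Cd79a lies 5531 bp from the nearest Arhgef1 TSS and a merged H3K4me3 region of 12166 bp spans both, so the Arhgef1 value cannot be told apart from that of Cd79a.

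**Figure D1:**
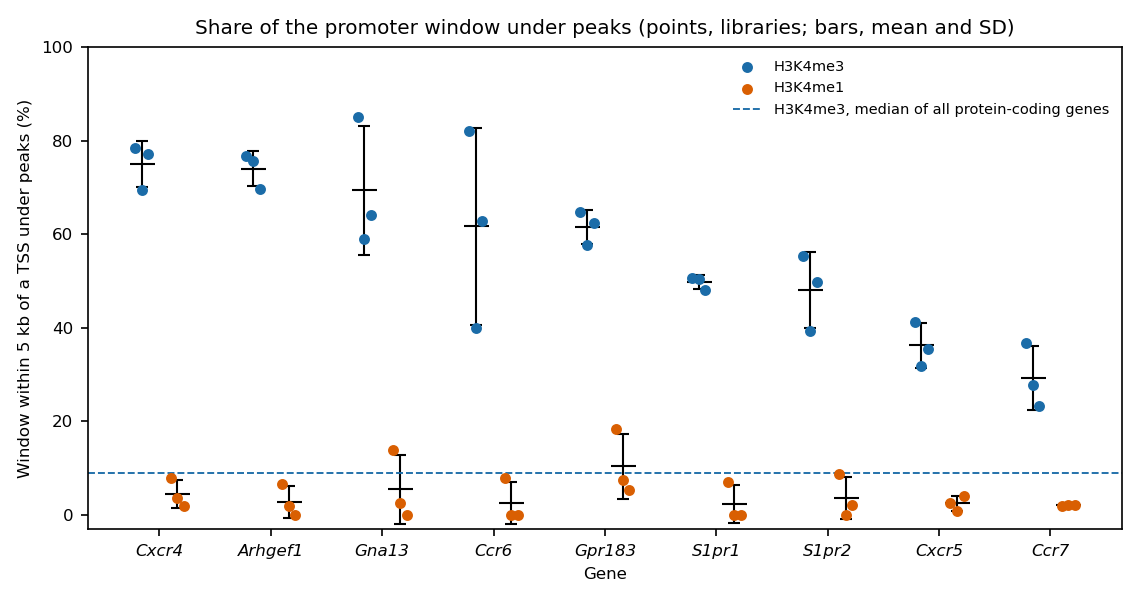
Share of the promoter window (bases within 5 kb of a TSS) under peaks, in percent, for each gene on the horizontal axis. Points are the 3 libraries of a mark, horizontal bars are means and error bars are SD. The dashed line is the H3K4me3 median of all protein-coding genes, 9.05%, and the H3K4me3 points of all 9 genes lie above it and above their own H3K4me1 points.

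By mean H3K4me3 share, the order was Cxcr4, Arhgef1, Gna13, Ccr6, Gpr183, S1pr1, S1pr2, Cxcr5 and Ccr7. Of the 8 neighbouring pairs in this order, only Gpr183 and S1pr1 had library ranges that did not overlap (57.6% to 64.7% against 48.0% to 50.6%). The 5 leading genes lay above 99.2% to 99.8% of all protein-coding genes, S1pr1 and S1pr2 above 97.5% and 97.1%, Cxcr5 above 93.2% and Ccr7 above 88.3%. Among the 12286 genes with a promoter H3K4me3 peak in 3 of 3 libraries, whose median share was 19.3%, the same genes ranged from the 79.2 percentile for Ccr7 to the 99.6 percentile for Cxcr4. H3K4me3 replicate 1, whose peaks cover the most sequence, had the highest share at 9 of 9 genes.

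The marks were then compared at each promoter by the length covered. At Cxcr4, H3K4me3 covered 7847, 6944 and 7716 bp and H3K4me1 covered 790, 366 and 193 bp in replicates 1, 2 and 3, a difference of means of 7053 bp. The difference was 8607 bp for Cxcr5, 2720 bp for Ccr7, 11134 bp for Ccr6, 4739 bp for S1pr1, 4451 bp for S1pr2, 5110 bp for Gpr183, 6388 bp for Gna13 and 8185 bp for Arhgef1. Every H3K4me3 library lay above every H3K4me1 library at 9 of 9 genes, and this held for 55.8% of all protein-coding genes. With the 10000 peaks of highest q-value per library it held at 5 of 9 genes, and the difference fell to 1654 bp at Ccr6, 1232 bp at Gpr183, 761 bp at Gna13 and 1221 bp at Arhgef1 (exact permutation p = 1 at each). It held at 8 of 9 with a −log10 q-value of at least 5 (all but Ccr6) and at 8 of 9 when only peaks lying over a TSS were counted (all but Ccr7). The share of all protein-coding genes was not computed under these alternatives. The two-sided exact permutation p-value was 0.1 at each gene (n = 3 per mark), the smallest that 20 assignments of the libraries can give, so no gene could pass 0.05, and the Benjamini-Hochberg adjusted exact p over all protein-coding genes was 0.179. The H3K4me3 lists hold broad calls and the H3K4me1 lists narrow calls, and mark and calling mode cannot be told apart in this difference.

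Promoter H3K4me1 peaks were narrow and seldom lay over a start site. H3K4me1 peaks had median widths of 270, 264 and 253 bp in replicates 1, 2 and 3, against promoter windows of 10001 bp or more. Few such peaks would cover a TSS wherever they lay, so the counts below do not show that H3K4me1 avoids start sites. Of 39 promoter H3K4me1 peaks of the 9 genes, 24 were centred downstream and 15 upstream of the nearest TSS. Gpr183 gave 7 of the 24 and 2 of the 15, and the split was not computed by replicate or for all genes. Only 1 peak covered a TSS, that of Cxcr5 at position 44561877 in replicate 3, which lay under no H3K4me3 peak. Over the whole annotation, an H3K4me1 peak covered a TSS in 3 of 3 libraries at 0.0274% of genes. A promoter H3K4me1 peak in 3 of 3 libraries was found at 4 of 9 genes, Cxcr4, Cxcr5, Ccr7 and Gpr183, against 6.17% of all protein-coding genes and 11.0% of those with promoter H3K4me3 in 3 of 3 libraries. Each of the 9 genes had a promoter H3K4me1 peak in at least 1 library, whereas 64.3% of all protein-coding genes had one in no library. At Ccr6 and S1pr1 such peaks were called only in replicate 1, at Gna13 and Arhgef1 in replicates 1 and 2, and at S1pr2 in replicates 1 and 3. None of the 4 kept its call when a −log10 q-value of at least 5 was required or when the distance was cut to 1 kb.

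**Figure D2:**
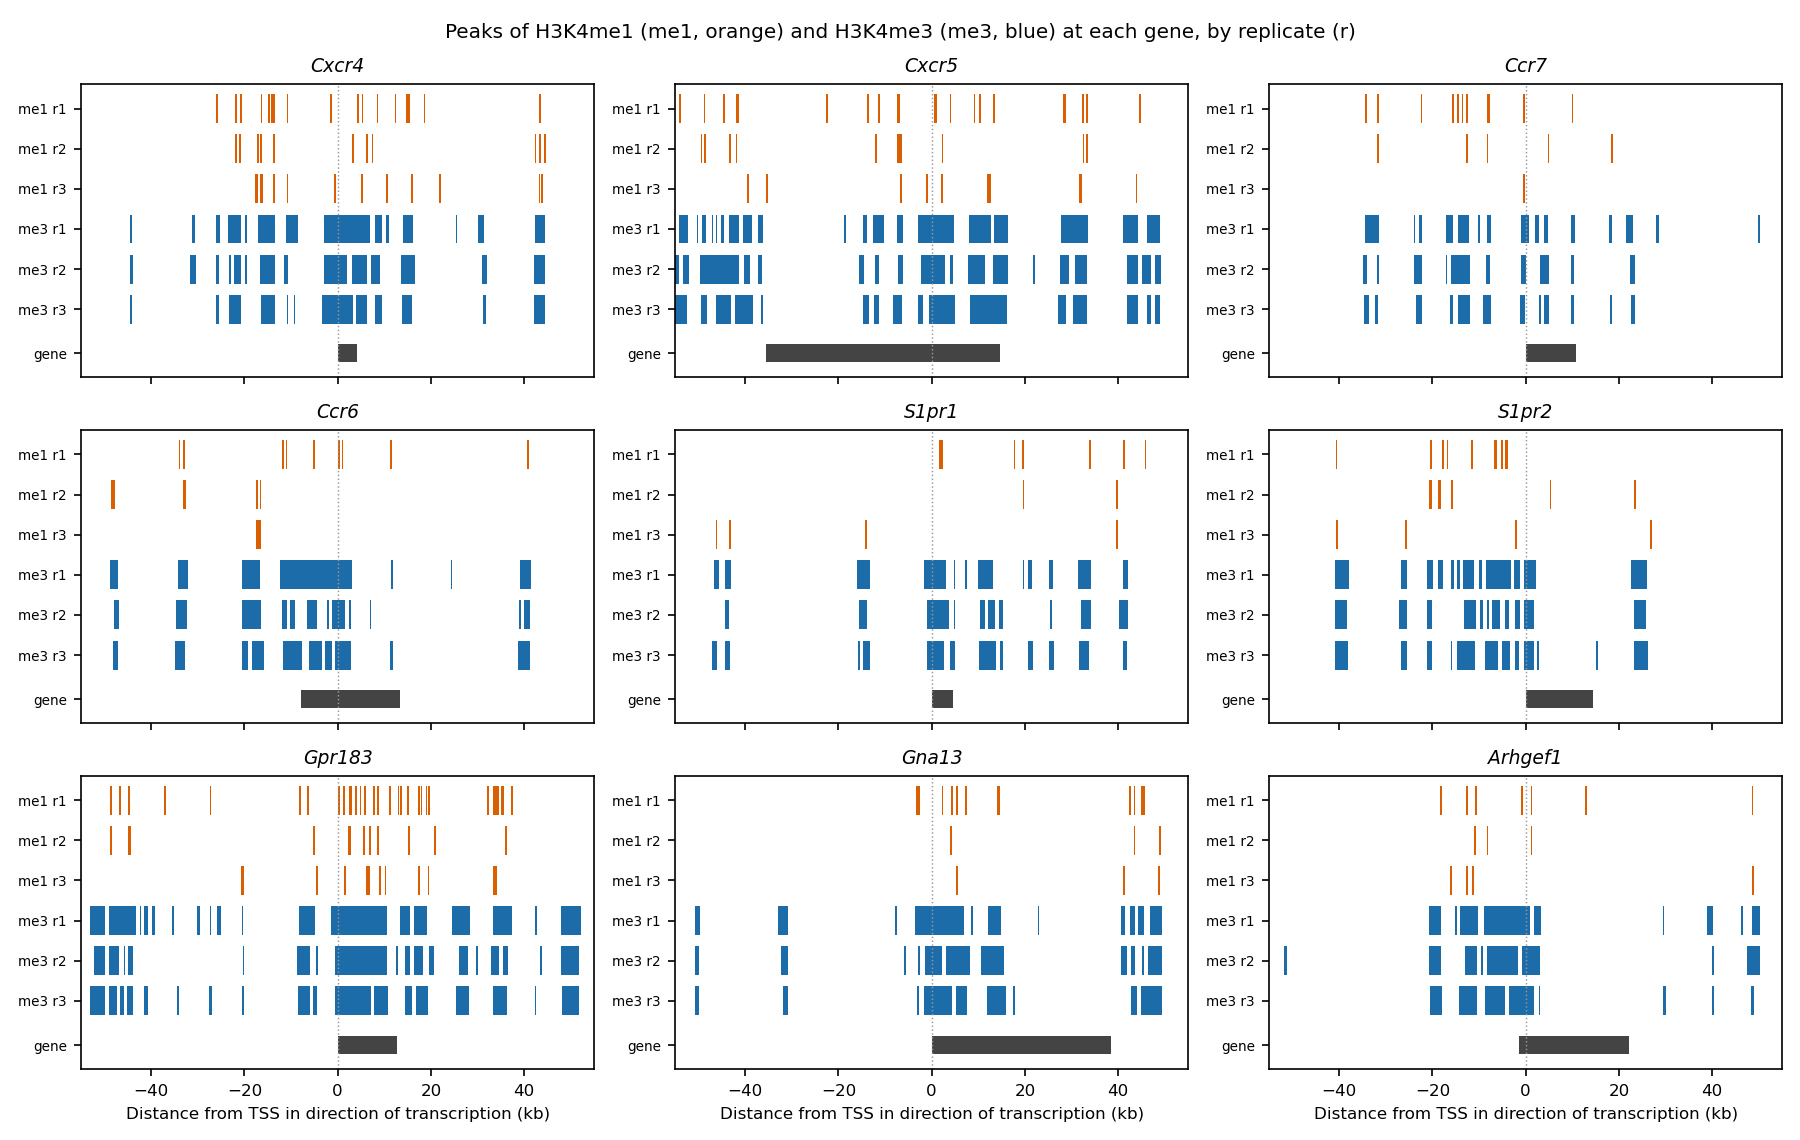
Peaks at the 9 genes by distance in kb from a TSS, in the direction of transcription, with 1 row for each library (me1, H3K4me1, orange; me3, H3K4me3, blue; r, replicate) and the gene as a grey bar. For genes with several TSSs, distance is from the first in position among those covered by H3K4me3 in most libraries; peaks narrower than 0.35 kb are drawn at that width. Blue domains cover the start in all rows except Ccr7 replicate 3, and orange peaks are scattered to both sides.

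Away from the promoters, both marks were frequent. An outlying H3K4me3 peak was called in 3 of 3 libraries at 9 of 9 genes (60.3% of all protein-coding genes), and an outlying H3K4me1 peak at 8 of 9 (20.4% of all protein-coding genes and 30.0% of those with promoter H3K4me3). The exception was Ccr7, with 8, 4 and 0 outlying H3K4me1 peaks. The median outlying length under H3K4me1 was 1223 bp for the 9 genes and 70.3 bp for all protein-coding genes, and that under H3K4me3 was 12728 and 1581 bp. Outlying lengths and counts were not scaled to the sequence in the zone. That sequence is shorter for long genes, whose inner peaks count as gene body, and longer for genes with spread TSSs. Outlying ranks and comparisons between genes, here and below, therefore also depend on gene structure.

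Cxcr4 had more outlying H3K4me1 peaks than any other gene of the set in replicates 2 and 3, with 13, 10 and 10 outlying H3K4me1 peaks in replicates 1, 2 and 3 and 13, 12 and 10 outlying H3K4me3 peaks. Its outlying H3K4me1 length, 3726 ± 949 bp (SD, n = 3), exceeded that of 99.9% of genes. Gpr183 had 18, 5 and 4 outlying H3K4me1 peaks and 16, 15 and 15 outlying H3K4me3 peaks, so its H3K4me1 count rests largely on replicate 1, and its length was 3400 ± 2748 bp (SD, n = 3). In replicates 2 and 3 alone, Cxcr4 had 10 and 10 peaks against 5 and 4 at Gpr183.

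Cxcr5 had 9, 7 and 5 outlying H3K4me1 peaks and 14, 14 and 11 outlying H3K4me3 peaks, of which 3, 1 and 4 and then 6, 9 and 8 lay within 5 kb of a TSS of another gene, Bcl9l or Ddx6. S1pr2 had 6, 4 and 3 outlying H3K4me1 peaks, of which 1, 1 and 3 lay near a TSS of another gene, its neighbours being Dnmt1, Icam1 and Mrpl4. Arhgef1 had 4, 2 and 4, of which 2, 2 and 2 lay near one, in a dense neighbourhood that holds Cd79a and 5 other coding genes. With such peaks left out, S1pr2 and Arhgef1 no longer had an outlying H3K4me1 peak in every library and the count was 6 of 9. The share of all protein-coding genes was not computed under this rule.

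Of the remaining genes, S1pr1 had 5, 2 and 4 outlying H3K4me1 peaks, Ccr6 3, 5 and 1, and Gna13 3, 2 and 2. These are low counts within the set, but the lengths covered still exceeded those of 90.9%, 95.3% and 88.1% of all protein-coding genes. Their outlying H3K4me3 peaks numbered 10, 8 and 10 at S1pr1, 5, 5 and 5 at Ccr6, and 7, 7 and 4 at Gna13. Like those of Cxcr4 and Ccr7, the S1pr1 peaks all lay more than 5 kb from any TSS of another coding gene, whereas 0, 1 and 1 of the Gna13 H3K4me1 peaks and 1 H3K4me3 peak in each replicate lay nearer to one, and the nearest such TSS to Gna13 is that of 9930022D16Rik.

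**Figure D3:**
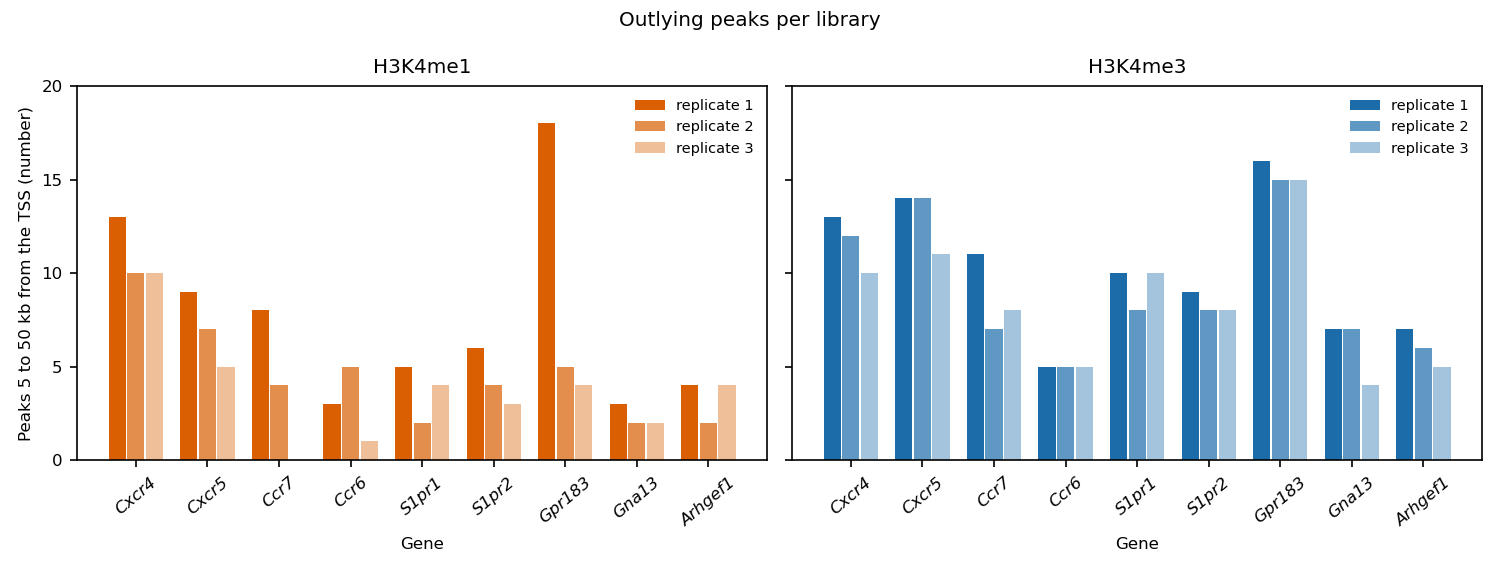
Number of peaks 5 to 50 kb from the TSS for each gene, H3K4me1 on the left and H3K4me3 on the right, with 1 bar for each replicate. Cxcr4 has 10 or more H3K4me1 peaks in every library, Gpr183 has 18 in replicate 1 and 5 and 4 in the others, and the Ccr7 bar of replicate 3 is at 0.

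Within gene bodies, H3K4me3 peaks beyond the promoter window were called in 3 of 3 libraries at 4 of 9 genes, Cxcr5, Ccr7, Ccr6 and Gna13 (19.3% of all protein-coding genes). H3K4me1 peaks there were called in 3 of 3 at 2 of 9, Cxcr5 with 7, 2 and 2 and Gpr183 with 4, 3 and 3 (6.64% of all protein-coding genes). Cxcr4 and S1pr1, whose short bodies lie within the promoter window, had none.

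Presence in every library did not mean the same position. When the H3K4me1 peaks of the 3 libraries were merged, the 9 genes had 163 regions, of which 5 (3.07%) held a peak of all 3 libraries, against 1845 of 39388 regions (4.68%) in the whole genome. For H3K4me3, 74 of 124 regions (59.7%) did so, against 41.6% of all regions, and each of the 9 genes had at least 1 of them, as did 72.3% of all protein-coding genes. Of the 5 H3K4me1 regions, 3 were at Cxcr4, 1 in a Cxcr5 intron 6355 bp upstream of the TSS at 44526421 (chr9:44532776-44533869), and 1 lay 8889 bp upstream of Arhgef1 and 3358 bp from a TSS of Cd79a (chr7:24892966-24894023). At Gpr183, 0 of 35 H3K4me1 regions were present in all 3 libraries.

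Only the 3 Cxcr4 regions, whose windows are printed above, also had bases common to all 3 libraries, over 211, 272 and 204 bp. Of all protein-coding genes, 10.3% had at least 1 such region in their zones and 0.540% had at least 3. Fold enrichment here is the ratio of pileup to local background with 1 added to each, which lowers it most where the background is low. In the region 43142 bp downstream of the TSS, it was 11.2, 7.50 and 6.15 in replicates 1, 2 and 3, with 15, 9 and 8 fragments at the summit. In the region 13454 bp upstream the values were 5.79, 8.12 and 10.96, with 18, 10 and 14 fragments, and in the region 15986 bp upstream they were 6.87, 5.49 and 9.50, with 9, 7 and 12 fragments. The library with the highest fold enrichment thus differed between the downstream region, where it was replicate 1, and the upstream regions, where it was replicate 3. By summit fragments, replicate 1 was highest in the downstream and nearer upstream regions (15 and 18) and replicate 3 in the farther upstream region (12).

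The same regions lay under H3K4me3 peaks in 3 of 3 libraries. The downstream region lay under H3K4me3 peaks 2212, 2441 and 2294 bp wide with mean fold enrichments of 8.94, 6.27 and 7.68, and both upstream regions lay under a shared H3K4me3 peak 3625, 3156 and 2881 bp wide with values of 4.68, 4.48 and 4.66. At the Cxcr4 promoter the highest values for this mark were 6.89, 6.67 and 6.76. The number of shared regions changed with the threshold and with the libraries required to share bases. With a −log10 q-value of at least 5, 1 was left. With replicate 1, 2 or 3 left out, a less strict rule, the 9 genes had 11, 14 or 26 regions with bases common to the remaining libraries. Of these, 4, 5 and 5 were at Cxcr4, 1, 4 and 6 at Gpr183 and 2, 0 and 5 at Cxcr5. The effect of depth was not tested. The lead of Cxcr4 in shared regions is therefore not kept in replicates 1 and 2 alone.

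**Figure D4:**
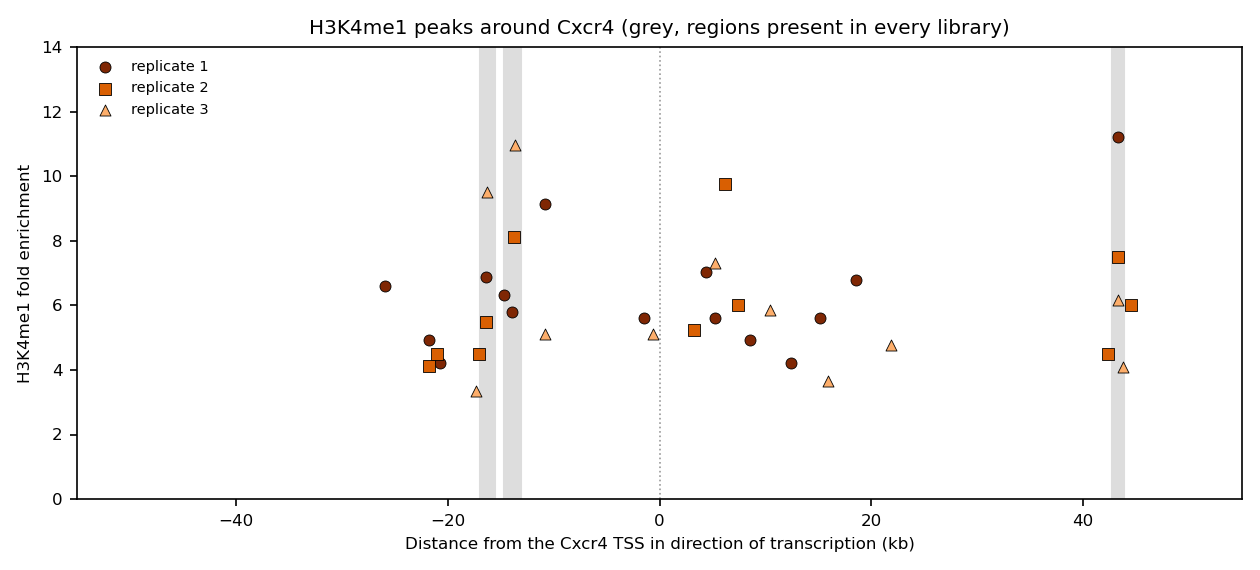
Fold enrichment of each H3K4me1 peak around Cxcr4 by distance in kb from the TSS, in the direction of transcription, with 1 symbol for each replicate. Grey bands mark the 3 regions present in every library, 15986 and 13454 bp upstream and 43142 bp downstream.

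Overlap of the marks was not particular to Cxcr4. Of 211 H3K4me1 peaks at the 9 genes, 190 (90.0%) overlapped an H3K4me3 peak of at least 1 library, and the shares over all peaks were 80.0%, 80.7% and 84.2% in H3K4me1 replicates 1, 2 and 3. By gene the share ranged from 66.7% (8 of 12) at S1pr1 to 100% at Ccr7, Ccr6 and Gna13. Summits held 4 to 18 fragments with a median of 6, and 23 of the 211 held at least 10, of which 7 were at Cxcr4 and 7 at Gpr183. Most of the 23 were peaks of replicate 1. A Gpr183 peak 14875 bp downstream of the TSS had the highest fold enrichment of the 211, 13.0 with 18 fragments in replicate 1, and replicate 2 had one of 10.5 with 13 fragments 15128 bp downstream, while replicate 3 had none of at least 10 fragments outside the gene body.

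Other genes of the same pathways gave a graded picture. Of 18 other chemokine receptors, 6 had a promoter H3K4me3 peak in 3 of 3 libraries (56.2% of all protein-coding genes). None in any library was found at 9 of the 18 (34.5% of all protein-coding genes). The median share of the promoter window was 0.255%, against 61.5% for the 9 genes and 9.05% for all protein-coding genes. Ccr10 (8235, 5899 and 6724 bp) and Ackr4 (6066, 4647 and 5873 bp) had the longest H3K4me3 coverage, and Cxcr2 and Cxcr6, which act on neutrophils and on T cells, were among the 9 with 0 bp in each library. Ackr4, a scavenger of CCR7 ligands, was the list's only member with promoter H3K4me1 in 3 of 3 libraries, at 1536, 928 and 963 bp. This is 1 of 18, near the 6.17% of all protein-coding genes.

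Of 10 other S1P receptors and enzymes that make, move or break down S1P or oxysterol ligands, 8 had promoter H3K4me3 in 3 of 3 libraries. Promoter H3K4me1 in 3 of 3 was at 0 of them, and the median H3K4me3 share was 13.7%. Over all protein-coding genes these values were 56.2%, 6.17% and 9.05%. S1pr4, a further S1P receptor of lymphocytes, had 5598, 5009 and 5281 bp, a range that overlaps those of S1pr1 and S1pr2. The S1P-producing kinase Sphk2 had 5069, 3462 and 4088 bp. Cyp7b1 (247, 0 and 0 bp) and Hsd3b7 (0 bp in each library), which make and degrade the GPR183 ligand, were at the low end.

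Among other G protein subunits, promoter H3K4me3 covered 10682, 7226 and 11425 bp at Gnas and 3920, 6707 and 5253 bp at Gnai2, through which chemokine receptors signal. It covered 1429, 1072 and 1373 bp at Gna12, the closest relative of Gna13, and at Gnai3 1560, 1666 and 1860 bp. The Gna13 values of 8506, 5894 and 6412 bp did not overlap those of Gna12 in any library.

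Of 11 regulators of these receptors, 10 had promoter H3K4me3 in 3 of 3 libraries (56.2% of all protein-coding genes). Their median share was 34.5%, against 9.05% for all protein-coding genes. Promoter H3K4me1 in 3 of 3 was at 3 of 11, Rgs2, Rgs13 and Cd69 (6.17% of all protein-coding genes). The receptor kinase gene Grk6 (8371, 8771 and 8048 bp) and the transcription factor gene Foxo1 (6728, 7111 and 6639 bp) had the longest coverage. The G protein regulators Rgs1 (1538, 581 and 704 bp) and Rgs16 (0 bp in each library) had the shortest.

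The gene most like each member was sought by the mean absolute difference in log2(covered bp + 100) over 12 values, the promoter and outlying zones in 6 libraries. Cxcr4 was nearest to the MHC class II gene H2-Eb1 (0.35), Cxcr5 to H2-DMa (0.32), Ccr7 to Tet3 (0.34), Ccr6 to Cd24a (0.41) and S1pr1 to Clec2g (0.21). S1pr2 was nearest to Irf4 (0.20), Gpr183 to Il4ra (0.22), Gna13 to Zfp217 (0.25) and Arhgef1 to Otub2 (0.34). These values describe similar covered lengths on the log2 scale and carry no test.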

How the data were processed

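The authors deposited 1 peak list per library (3 H3K4me1, 3 H3K4me3), called in each library separately. Per the labels, reads were placed on mm10, and the submitters' processing notes name BWA, Picard, HOMER and Genrich without roles or versions. The layout and peak names are those of MACS2, and the caller's version, settings and control are not given in the sources used here. The deposited fold enrichment is a linear ratio of pileup to local background, with 1 added to each in the form solved for H3K4me1. This form gave whole fragments at 100%, 100% and 99.99% of H3K4me1 peaks in replicates 1, 2 and 3. The deposited −log10 p and −log10 q values belong to the same comparison. In broad lists fold enrichment, p and q are means over a peak. The lowest −log10 q was 1.31 to 1.32 in the narrow H3K4me1 lists and 1.02 to 1.14 in the broad H3K4me3 lists. The deposited score column was not used. Total reads were not used here.

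Peaks were assigned with Python 3.11.15, numpy 2.4.6, pandas 2.3.3 and scipy 1.17.1 to 41451 TSSs of 21864 protein-coding genes (GENCODE M21 basic, GRCm38), and 0 peaks lay past a chromosome end. Covered promoter length was compared between marks by a two-sided exact permutation test with Benjamini-Hochberg adjustment over all genes. H3K4me1 summit fragments were solved from fold enrichment and p (tolerance 0.0005). Regions are peaks of the 3 libraries of a mark merged where they overlap, and a percentile is the share of genes with a lower value. RefSeq promoters matched 6 of 9 members. Named were all 9 members and, from each of 4 pathway lists, the 2 genes with the longest and the 2 with the shortest mean promoter H3K4me3, besides genes that a count or neighbourhood turns on. Counts over 1 of these lists are not reported here. Of genes tied at 0 bp, the last in alphabetical order were named. Members and lists were chosen with earlier results of these data known. Zone assignment, the permutation test and the fragment solution were tested on simulated data. Alternatives are given in the closing section.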

Additional observations from a re-analysis of the deposited data

How the results depend on the processing

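Of 45 recomputed counts, 32 stayed within 1.5 times the reported count and 13 did not. The promoter contrasts cannot pass 0.05 under any alternative, so their side of the threshold says nothing about stability. Covered length stayed longer for H3K4me3 at 9 of 9 genes in each alternative, but with the 10000 best peaks the difference was 761 to 1654 bp at Ccr6, Gpr183, Gna13 and Arhgef1, whose libraries then overlapped. Counted as number of peaks, the contrast was -1 at Gpr183 and the marks did not overlap at 3 of 9 genes. With a −log10 q-value of at least 5, members with H3K4me1 in 3 of 3 libraries fell to 0 for promoters, 2 for outlying zones (Cxcr4 and Gpr183) and 0 for gene bodies, and those with gene-body H3K4me3 to 0. With the 10000 peaks of highest q-value per library, members with promoter H3K4me3 numbered 5 (Cxcr4, Cxcr5, Ccr7, S1pr1 and S1pr2) and with gene-body H3K4me3 0. Promoter H3K4me1 was at 0 members within 1 kb and at 0 over the TSS itself. Outlying H3K4me1 was at 5 members within 25 kb and 9 within 100 kb. The cause of these changes was not tested. Shares of all protein-coding genes were computed only for the main setting. The counts under alternatives, here and above, therefore describe the members alone.

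With each replicate number left out in turn, members with promoter H3K4me3 numbered 9, with promoter H3K4me1 4 to 6, with outlying H3K4me3 9, with outlying H3K4me1 8 to 9, and with gene-body marks 4 to 5 for H3K4me3 and 2 to 3 for H3K4me1. Regions of H3K4me1 with bases common to every library, counted after the data were seen, numbered 11 to 26 when 1 replicate was left out, 1 at the stricter q-value and 3 with the 10000 best peaks. Same-numbered libraries of the marks deviated together with r = 0.14, 0.05 and 0.02 over genes. In replicates 2 and 3 this was below the 0.1 set for a pairing. A pairing by number was thus not established, and these values cannot exclude one. The paper's methods state that samples were barcoded and then pooled for immunoprecipitation. They do not say whether same-numbered libraries of the marks share chromatin. Replicate 1 had the highest promoter share at 7 of 9 members for H3K4me1 and at 9 of 9 for H3K4me3. Not every library correlated best with its own number, since H3K4me1 replicate 3 did so with H3K4me3 replicate 2. With the replicate block the difference was the same at each gene, for example 7053 bp at Cxcr4, and the sign-flip p was 0.25, the smallest possible. Few fragments per H3K4me1 summit limit what can be said of missing peaks.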
